A study of Mus musculus with 2 samples.

Results

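Splicing factor and RNA helicase genes were examined in mouse embryonic fibroblasts with and without FGF2. The members are the genes whose symbols begin with Srsf, Hnrnp, Snrp, Sf3a, Sf3b, Prpf, Ddx, Dhx or Rbm. Probe identifiers carry an NCBI gene number, and 89 member genes had a probe that could be named through it, of 7409 genes named on the array. The brightest probe stood for its gene, and 55 members were detected, that is, had a detection score of at least 0.99 on the control or the FGF2 array, of 3005 named genes detected. The symbols gather splicing factors and helicases together with some RNA-binding proteins of other known roles, such as Rbms2 and the multicopy Y-linked Rbmy.

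The study measured total RNA of embryonic fibroblasts from NMRI mice, an outbred stock, on Illumina bead arrays read in 1 colour. All cells had been grown in serum, treated with mitomycin C, which crosslinks DNA and halts division, replated on gelatine and moved to a serum replacement medium used for human embryonic stem cells. The control culture received that medium without FGF2 and the other received it with 40 ng/ml FGF2, a fibroblast growth factor, for 24 h. Each group is 1 array, so no p-value could be computed and none of the differences has a replicate check. The age of the embryos, their sex and the number of animals behind each culture are not given in the sources used here.

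Splicing removes introns from pre-mRNA. The spliceosome is built from small nuclear RNPs, whose ring of Sm proteins is encoded by Snrp genes, and from protein complexes such as SF3 and the tri-snRNP proteins of the Prpf group. SR proteins (Srsf) mostly favour the use of nearby splice sites, and hnRNPs coat nascent transcripts and often oppose it. DEAD-box (Ddx) and DEAH-box (Dhx) helicases use ATP to remodel RNA, in splicing, in ribosome assembly, in translation and, for Ddx58 (RIG-I), in the sensing of viral RNA.

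Stretches of 3 promoters are shown because they belong to the member with the greatest reduction and to the members with the 2 greatest increases. The sequences come from RefSeq, build GRCm38.p6, and are written 5′ to 3′ on the gene's strand. For Ddx58 the stretch is chr4:40239806-40239905 (minus strand), running from 80 bases before the annotated transcript start to 20 bases after it. Its capitals mark a match, on the opposite strand, to the core of the interferon-stimulated response element, taken as GAAA, any 2 bases and GAAA again, whose first base is base 3 of the transcript. For Hnrnpa1 the stretch is the 150 bases before the start, chr15:103240247-103240396 (plus strand), and for Ddx18 it is chr1:121568051-121568170 (minus strand), which begins 190 bases before the start. In both, capitals mark CCAAT.
Ddx58: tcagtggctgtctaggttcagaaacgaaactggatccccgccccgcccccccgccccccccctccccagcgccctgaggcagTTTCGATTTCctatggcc
Hnrnpa1: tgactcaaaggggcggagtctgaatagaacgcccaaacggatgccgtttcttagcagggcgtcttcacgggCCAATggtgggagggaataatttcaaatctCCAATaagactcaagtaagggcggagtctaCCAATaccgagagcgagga
Ddx18: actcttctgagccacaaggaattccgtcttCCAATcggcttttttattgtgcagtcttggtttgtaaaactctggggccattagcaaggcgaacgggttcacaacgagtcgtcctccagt

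The arrays detected 7599 and 7424 of 24044 probes in control and with FGF2, and the lowest detected signals were 194.6 and 184.9. The labelled cell type was checked against markers. All 6 fibroblast markers with a named probe were detected, and their summed signal was 33358 in control and 15792 with FGF2, where 4 of the 6 (Col1a1, Col1a2, Col3a1 and Fbln1) were at least 2-fold lower. Of the macrophage and leukocyte markers 2 of 5 were detected (summed signals 551.5 and 538.9), of the epithelial markers 2 of 3 (393.5 and 455.5), of the endothelial markers 0 of 1 and of the pluripotent markers 0 of 3. The near-equal leukocyte sums hold opposite differences, with Cd53 at 176.7 and 318.7 (at least 1.82-fold higher) and Lyz2 at 374.8 and 220.2 (−0.58 on the log2 scale). Of the epithelial markers, Krt18 was at least 1.52-fold higher and Cldn4 was at −0.0078. The part of these markers in the results below was not tested.

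The comparison asks which of these transcripts differ after 24 h with FGF2. Most of the 55 detected members differed little between the cultures. Hnrnpa1, which encodes an hnRNP that represses splice sites, was the only member at least 1.5-fold higher with FGF2, and Ddx58 the only one at least 1.5-fold lower. Each is 1.82% of the members, where 5.29% of all named detected genes were at least 1.5-fold higher and 6.79% at least 1.5-fold lower. None of the members reached 2-fold, against 1.46% of all genes that were 2-fold higher and 2.6% that were 2-fold lower. With 1 array each, no test of that gap could be run.

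**Figure D1:**
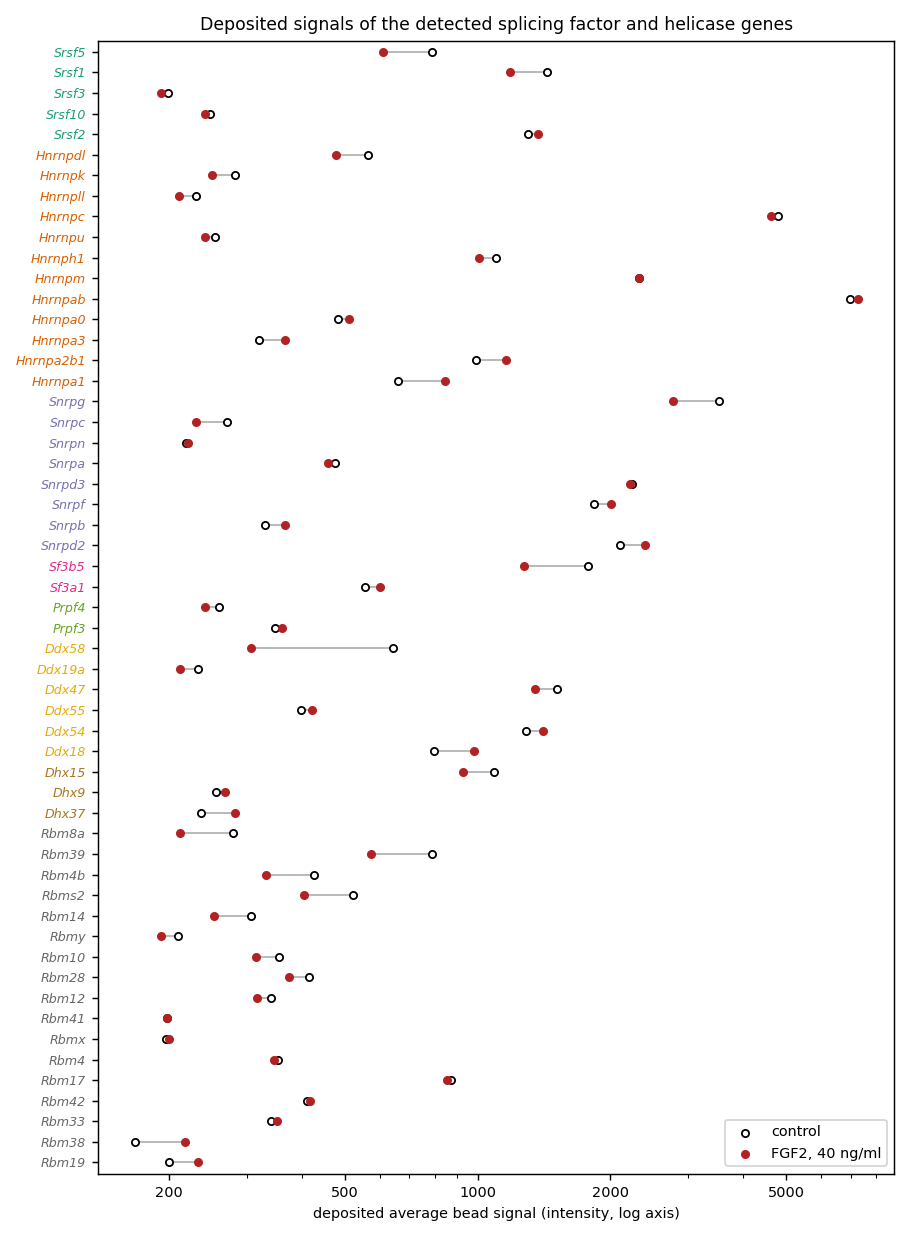
Deposited average bead signal of each of the 55 detected members (log axis) on the control array (open circles) and on the FGF2 array (filled circles), with symbols coloured by family. The longest gap is that of Ddx58, at 644.7 in control and 306.3 with FGF2.

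The ratios given here are log2 of FGF2 over control after quantile normalization, which gives both arrays the same distribution of signals. The ± is the deposited bead standard deviation of both arrays combined on the log2 scale. It covers variation within an array only. The median ratio of the 55 members was 0.14, against 0.028 for all 3005 genes, so the members lay 0.11 above the median gene. Of the 55, 42 had a ratio above 0 (76.4%, against 54.2% of all genes). This direction depends on the scaling, since in the signals as deposited 33 of the 55 were lower with FGF2 and the members' median was −0.039, while the median of all genes was −0.14.

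In all, 38 of the members (69.1%) lay within 1.2-fold, against 64.5% of all genes, and 53 (96.4%) within 1.5-fold, against 87.9% of all genes. The ratio exceeded 2 bead errors upward in 27 members (49.1%; 31.6% of all genes) and downward in 5 (9.09%; 24.7% of all genes), and 23 lay between. The standard deviation of the ratio over genes was 0.24 for the members and 0.47 for all genes, as the plot of the spread shows.

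**Figure D2:**
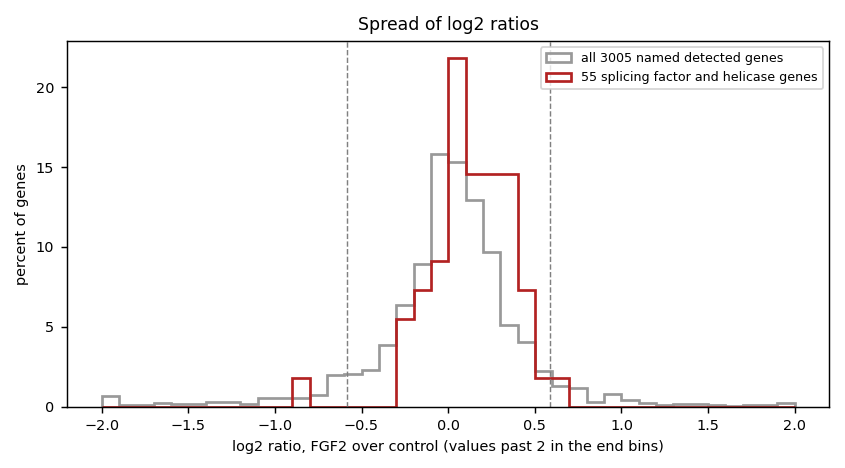
Percent of genes in each bin of the log2 ratio, FGF2 over control, for all 3005 named detected genes (grey) and for the 55 members (red), with dashed lines at 1.5-fold. Of the members 42 lie above 0, and all but Ddx58 (−0.85) lie between −0.23 and 0.61.

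The helicase genes were divided. Ddx58 encodes RIG-I, a cytosolic helicase that binds viral RNA and starts interferon production. Its deposited signal was 644.7 in control and 306.3 with FGF2, both well above the lowest detected signals. It was 1.80-fold lower with FGF2 (log2 ratio −0.85 ± 0.055), and 102 of the 3005 genes had a lower ratio. In the authors' deposited table, which is background-subtracted, its values were 509.2 and 222.0 and it was 2.29-fold lower. Ddx58 is known as an interferon-induced gene. Of 6 detected genes in a list of interferon response genes, 5 were 1.5-fold or more lower, and 3 of those 2-fold or more, where 6.79% and 2.6% of all genes were. Ifit3, Irf7 and Mx2 among them were detected in control only, so they could only count as lower, and their values are bounds. Of the genes detected on both arrays, Irf9 was at −1.03 ± 0.089, while Irf1, at −0.47 ± 0.074, was under 1.5-fold. Oas1a, an antiviral enzyme detected on both arrays, had signals of 897.1 and 250.3 (−1.62 ± 0.072). Fewer cells holding these transcripts and less of them per cell cannot be told apart in such bulk RNA. Whether an interferon response differed between the cultures was not tested.

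The other RNA-sensing helicases gave little to compare. Dhx9, a nuclear helicase that also binds viral nucleic acid, had signals of 255.1 and 267.3 (0.24 ± 0.085). Dhx58 (LGP2), a relative of RIG-I that modulates its signalling, had 131.9 and 142.2 and was not well above background on either array. Ddx60, an interferon-induced helicase, had 158.3 and 141.7 and was not well above background either. The reduction therefore rests on Ddx58 alone among the sensor helicases with a named probe, and Ddx58 was measured by 1 named probe.

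Helicases of ribosome assembly had higher ratios. All 5 detected genes of that list had a ratio above 0, as did 76.4% of the members and 54.2% of all genes. Their median was 0.39, against 0.14 for the members and 0.028 for all genes, and none reached 1.5-fold. Ddx18, a nucleolar helicase of the large subunit pathway, had signals of 795.5 in control and 979.9 with FGF2 (0.55 ± 0.075, 1.47-fold). Dhx37, which acts in small subunit assembly, had 236.5 and 282.2 (0.42 ± 0.062). Ddx54 had 1286 and 1405 (0.39 ± 0.084), and Ddx55, of the large subunit pathway, had 397.2 and 421.4 (0.32 ± 0.083). All 4 were brighter with FGF2 also in the signals as deposited. Ddx47, which is needed for rRNA processing, had 1514 and 1347 and lay at 0.090 ± 0.055, so its direction turned with the scaling. Of the list, Ddx27, Ddx51 and Ddx56 were not well above background.

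After quantile normalization the remaining detected helicases lay near 0. Dhx15, the DEAH helicase that takes the spliceosome apart after splicing, had signals of 1088 and 925.1 (0.047 ± 0.076). Ddx19a, a close relative of the mRNA export helicase Ddx19b, had 232.0 and 212.1 (0.019 ± 0.085). Both differences are smaller than the bead error. The direction of Dhx15 turned with the scaling. It was at −0.23 in the signals as deposited, where the median of all genes was −0.14, at −0.046 with median scaling and at −0.043 with loess.

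**Figure D3:**
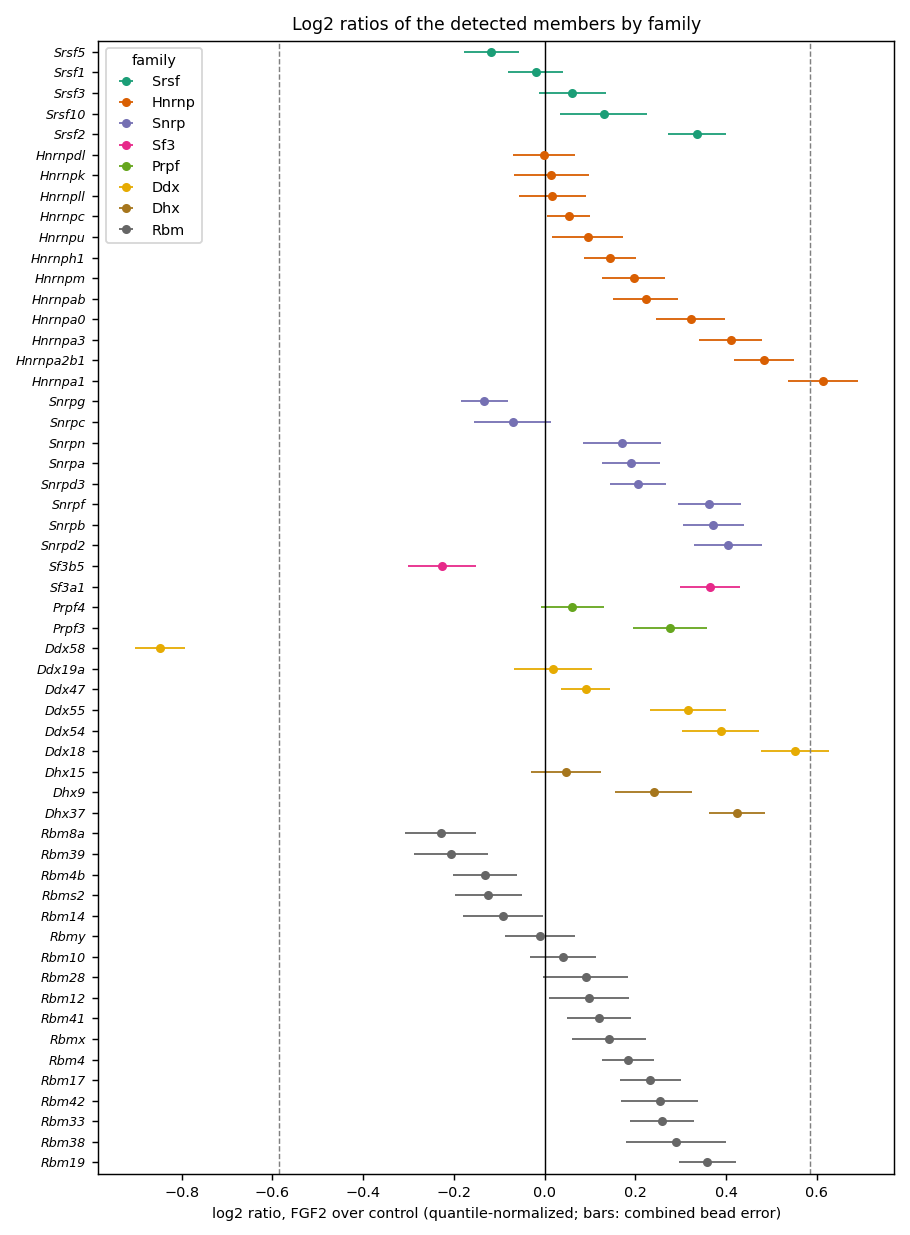
Log2 ratio, FGF2 over control, of each detected member after quantile normalization, grouped and coloured by family, with bars for the combined bead error and dashed lines at 1.5-fold. Hnrnpa1 (0.61) and Ddx58 (−0.85) lie past the lines. Rbm38 was detected on the FGF2 array only, so its point is a lower bound.

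Of 12 detected hnRNP genes, 11 had a ratio above 0 (91.7%, against 76.4% of the members and 54.2% of all genes). The family's median was 0.17. In the signals as deposited 7 of the 12 were lower with FGF2, and the family's median was −0.030, where that of all genes was −0.14. Hnrnpa1 had deposited signals of 660.3 in control and 842.8 with FGF2. It was 1.53-fold higher (0.61 ± 0.077), and 145 of the 3005 genes had a higher ratio. Its lead over the 1.5-fold mark, which is 0.58 on this scale, is smaller than its bead error. With signals as deposited it was at 0.35, with median scaling at 0.54 and with loess at 0.55, each under 1.5-fold, and in the authors' deposited table it was 1.73-fold higher. A further named probe of Hnrnpa1 was not well above background (132.2 and 132.3).

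The hnRNP genes of the A/B type came next in order. Hnrnpa2b1, which binds and sorts RNA, had signals of 993.7 and 1161 (0.48 ± 0.066). Hnrnpa3 had 319.6 and 365.1 (0.41 ± 0.069), and Hnrnpa0, which binds AU-rich mRNA, 483.3 and 510.1 (0.32 ± 0.076). Hnrnpab had 6981 and 7287 (0.22 ± 0.071). All 5 of these genes were brighter with FGF2 in the signals as deposited, and the other 7 detected hnRNP genes were not. Grouping the A/B type genes was chosen after their values were seen.

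The other 7 lay between −0.0014 (Hnrnpdl) and 0.20 (Hnrnpm). Hnrnpc, which binds uridine-rich stretches of nascent transcripts, had signals of 4802 and 4617 (0.053 ± 0.048), and its other probe gave 0.045. Hnrnpm had 2325 and 2319 (0.20 ± 0.069), and Hnrnph1, which binds guanine-rich runs, had 1098 and 1009 (0.14 ± 0.058). Hnrnpk, Hnrnpu and Hnrnpll had signals under 300 on both arrays and ratios of 0.015, 0.095 and 0.017.

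Sm and other snRNP genes were mostly a little higher after normalization. Of 8 detected Snrp genes, 6 had a ratio above 0 (75%, against 76.4% of the members and 54.2% of all genes). Their median was 0.20, and none was past 1.5-fold. In the signals as deposited 4 of the 8 were lower with FGF2, and the family's median was 0.0037, where that of all genes was −0.14. Among the genes of the Sm ring, Snrpd2 had signals of 2101 and 2398 (0.40 ± 0.074), Snrpb 330.6 and 366.8 (0.37 ± 0.067) and Snrpf 1838 and 2008 (0.36 ± 0.069). The other Snrpb probe gave 0.53. Snrpd3 had 2238 and 2220 (0.21 ± 0.061). Snrpg went the other way, with 3516 and 2772 (−0.13 ± 0.053). The ring's genes did not share 1 ratio, and the range from Snrpg to Snrpd2 is several times the bead error of either.

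The U1 protein genes Snrpa and Snrpc differed in sign, but Snrpc lay within its bead error of 0. Snrpa, which encodes the A protein of U1, had signals of 475.3 and 457.6 (0.19 ± 0.064), with 0.18 and 0.21 from its other probes. Snrpc, which encodes its C protein, had 270.7 and 229.6 (−0.071 ± 0.085). Snrpn, an imprinted relative of Snrpb that is best known in brain, was near the detection limit at 218.1 and 221.0 (0.17 ± 0.086).

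The detected SF3 genes differed in sign. Sf3a1, a subunit of the U2 snRNP complex SF3a, had signals of 554.3 and 599.7 (0.36 ± 0.066). Sf3b5, a small subunit of SF3b, had 1781 and 1273 (−0.23 ± 0.075). Neither reached 1.5-fold. Of the tri-snRNP genes, Prpf3 had 347.1 and 360.4 (0.28 ± 0.082) and Prpf4 had 259.5 and 240.5 (0.061 ± 0.070), while the other 5 Prpf genes with a named probe were not well above background.

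The 5 detected SR protein genes had a median of 0.061, and none reached 1.5-fold. Srsf2 (SC35) was the highest, with signals of 1300 in control and 1368 with FGF2 (0.34 ± 0.064). Srsf1 (SF2/ASF), the founding SR protein, had 1436 and 1183 (−0.020 ± 0.060). Srsf5 had 788.0 and 611.4 (−0.12 ± 0.060), and Srsf10 had 247.3 and 240.7 (0.13 ± 0.096). Srsf3 lay just inside the detection threshold, with 198.5 and 192.0 and scores of 0.993 and 0.996. In the signals as deposited, 4 of these 5 were lower with FGF2, and Srsf2 was not.

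The Rbm genes, RNA-binding proteins of varied function, had a median of 0.098 over 17 detected genes, of which none reached 1.5-fold. Rbm19, a nucleolar protein of ribosome assembly, had signals of 199.5 and 232.5 (0.36 ± 0.063). Its control signal was close to the lowest detected signal, and in the authors' deposited table it was 1.99-fold higher. Rbm38, known as a p53 target that stabilises mRNA, was detected only with FGF2 (217.2, against 167.0 in control) and was at least 1.22-fold higher.

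Rbm8a (Y14), a core protein of the exon junction complex, had the lowest ratio of the family, with 278.4 and 211.9 (−0.23 ± 0.078). Rbm39, a U2AF-related splicing coactivator, had 788.8 and 572.2 (−0.21 ± 0.082), but 0.0061 from its dimmer probe. Rbm4b was at −0.13, Rbms2 at −0.12 and Rbm14, a nuclear coactivator, at −0.091. Rbm17 (SPF45), a splicing factor that acts at the 3′ splice site, had 872.3 and 853.5 (0.23 ± 0.067). The other 9 genes lay between −0.010 (Rbmy) and 0.26 (Rbm33), and Rbmy, Rbm41 and Rbmx had signals under 210 on both arrays.

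Of 24 members with 2 or more named probes, 6 had 2 or more detected probes. The ratios of these probes spanned a median of 0.12 and at most 0.22 (Rbm12, at −0.13 and 0.098). None spanned 1.5-fold, but the probes of Rbm12 and of Rbm39 (−0.21 and 0.0061) differed in sign. Other detected members had a further probe not well above background, such as Hnrnpa2b1 (115.7 and 114.6) and Hnrnpa3 (117.0 and 98.8). Such probes could not be compared. Over the 54 members detected on both arrays, normalized log2 signals on the arrays correlated with r = 0.983, across genes, which share the arrays and are not independent replicates.

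The 34 members not well above background on either array had signals between 105.5 and 187.8. They include genes that are widely transcribed, such as Ddx5, with 3 named probes of which the brightest read 140.3 and 146.4, and Hnrnpd (133.4 and 132.0). Whether the transcript was scarce or the probe did not report it was not tested. Rbm3, a cold-induced RNA-binding protein, read 154.9 and 161.2, and Ddx3y, a Y-linked helicase, 114.0 and 119.9. Just outside the detection threshold were Prpf38a (best score 0.988), Rbm47 and Ddx19b (0.982 each). Just inside it were Srsf3 and Rbm41 (0.996 each). Rbm47, an RNA-editing cofactor, read 130.3 in control and 181.4 with FGF2.

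Members were also split by signal, at their median. The 27 members with a mean signal under 409.3 had a median ratio of 0.098, and the 28 at or over it had 0.20. All genes split at the same signal had medians of 0.018 and 0.053. No background was subtracted, which can understate the ratios of dim members. The part of this in the split was not tested.

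Promoters from RefSeq were used for 51 of the 55 detected members. Those of Hnrnpll, Rbm8a, Sf3b5 and Snrpb were not analysed here. Windows of 250 bases before to 50 after the start were searched on both strands. The GAAA repeat shown above in Ddx58 stood in 3 members (5.88%; 3.99% of all 27025 genes), and the other 2, Rbm28 (0.090) and Rbm41 (0.12), were not lower. CCAAT, shown above in Hnrnpa1 and Ddx18, stood in 29 members (56.9%; 41.1% of all genes), whose ratios ran from −0.21 to 0.61. Their median ratio of 0.14 was that of all members. CCGGAAGT, a strong ETS factor motif, stood in 6 members (11.8%; 4.31% of all genes), with ratios from −0.12 to 0.42. CACGTG, the E-box, stood in 5 (9.80%; 8.09%) and TATAAA in 10 (19.6%; 15.7%). All genes are here the 27025 with a promoter, detected or not, while the members were detected, so these shares compare unlike sets. The share among detected genes was not computed. These matches describe letters in a window and do not show a binding site.

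Other genes of RNA processing, from 5 lists that hold none of the members, were shifted about as little. Of 47 detected genes 1 was at least 1.5-fold higher and 1 at least 1.5-fold lower, where 5.29% and 6.79% of all genes were. Their median was 0.11, against 0.028 for all genes. These 2 genes are paralogues that bind GU-rich RNA and regulate splicing. Celf1 had signals of 414.4 in control and 561.9 with FGF2 (0.68 ± 0.066, 1.60-fold higher), and 0.45 from its dimmer probe. Celf2 had 476.7 and 221.2 (−0.91 ± 0.086, 1.87-fold lower), and −0.78 from its dimmer probe. Both probes of each gene thus pointed the same way. Celf1 was under 1.5-fold with the signals as deposited (0.44) and with the mean of its probes (0.57). In the authors' deposited table Celf1 was at 0.98 and Celf2 at −1.59.

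By role, 14 other spliceosome components had a median of 0.18, from −0.22 (Bcas2, of the PRP19 complex) to 0.40 (U2af2, which reads the polypyrimidine tract). The 17 other splicing regulators had a median of 0.10. Besides the Celf genes, Rbfox2, which binds UGCAUG and regulates exon choice, had signals of 551.7 and 332.1 (−0.50 ± 0.075), and Ptbp1, a repressor of exons, had 1612 and 1674 (0.32 ± 0.058). The 2 detected splicing kinases, Dyrk1a and Srpk2, lay at 0.081 and 0.19. Genes of the exon junction complex and of mRNA export had a median of 0.11 over 9, with Alyref, an export adaptor, at 0.44 ± 0.054. Genes of cleavage and polyadenylation had a median of 0.071 over 5.

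**Figure D4:**
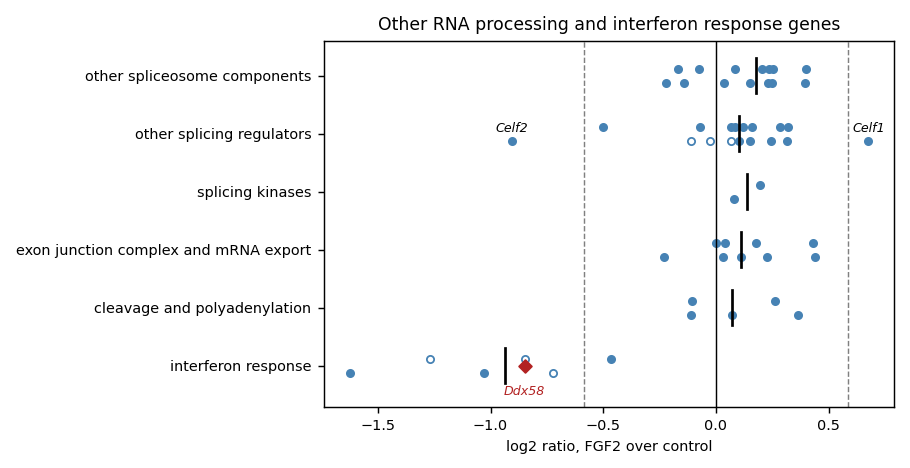
Log2 ratio, FGF2 over control, of each detected gene in 5 lists of other RNA processing genes and in the interferon response list. Black bars are list medians, open circles are genes detected on 1 array only (bounds), and dashed lines are at 1.5-fold. The red diamond is Ddx58 (−0.85), set beside the interferon response genes. Their median of −0.94 includes genes detected in control only.

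The size of the ratios depended on the processing. Less the median of all genes, Ddx58 lay between −0.87 and −1.33 over all the processings tried, and Hnrnpa1 between 0.50 and 0.66. In the values that the authors' deposited table gives, with no median taken off, 7 of 54 members (13.0%) were at least 1.5-fold higher, where 13.6% of all genes were. These were Hnrnpa1, Hnrnpa2b1, Hnrnpa3, Ddx18, Dhx37, Rbm19 and Snrpb. Less the median of all genes, that count was 4.

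**Figure D5:**
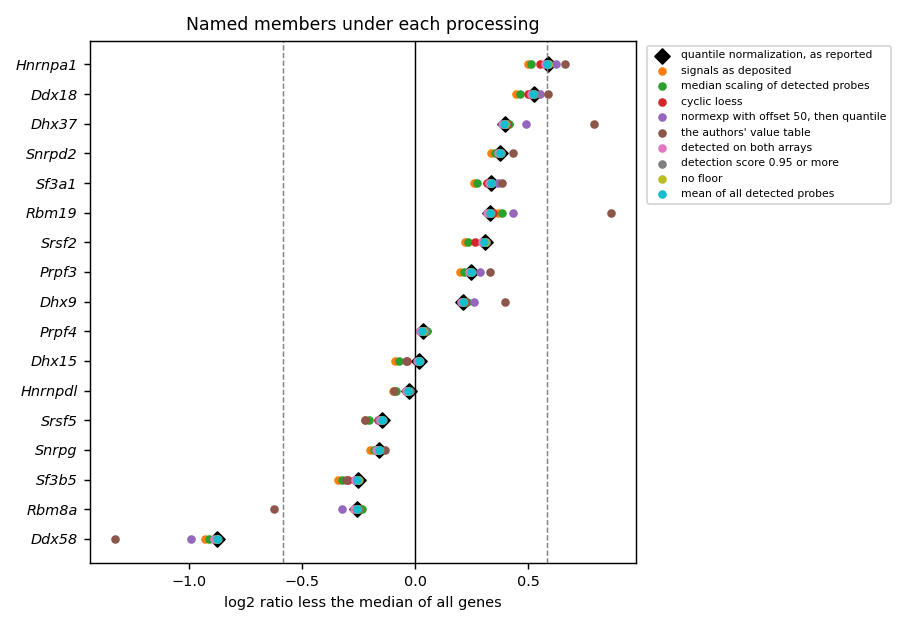
Log2 ratio less the median of all genes for 17 named members under the reported processing (black diamonds) and under each alternative (coloured circles), with dashed lines at 1.5-fold. Ddx58 is past the lower line under every processing drawn, and Rbm8a (−0.63) is past it in the authors' value table. Ddx58, Dhx37, Rbm19 and Rbm8a, among others, lie farther from 0 in the authors' value table than under the reported processing.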

How the data were processed

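Per the file headers, the authors deposited for each of 24044 probes an average bead signal and a bead standard deviation (intensity, linear scale) and a detection score. BeadStudio 1.0 was used, per the submitters' processing notes, and any normalization in it is not stated in the labels or headers. Background was not subtracted in these signals. The authors' deposited value table holds a further intensity. Against the signals its control column is lower by 135.4, and its FGF2 column follows a subtraction of 132.6 and a factor of 1.28, with column medians of 262.1 and 276.8. Why it was scaled so is unknown.

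Identifiers with 1 or 2 leading zeros were read as NCBI gene numbers (8884 of 9523, 93.3%, are listed in RefSeq GRCm38.p6, against 36.1% after adding 50). This is no probe annotation, and cross-hybridisation to related genes was not tested. Signals were quantile normalized and raised to a floor, the lowest normalized signal among detected probes (188.4 and 191.7), before log2. A gene detected on 1 array gives a bound. The number of arrays limits the precision. The bead number is not given, so the deposited bead deviation may be a spread over beads or an error of their mean. Functions were tested on simulated data. Alternatives used limma 3.58.1, and the rest Python 3.11.15. Members and lists were chosen with earlier results of these data known. Named genes were those past 1.5-fold, the highest and lowest of each family, detected sensor helicases, members whose probes disagree, and other-list genes past 1.5-fold. Further members were named after their values were seen.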

Additional observations from a re-analysis of the deposited data

How the results depend on the processing

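Each result was recomputed with signals as deposited, median scaling, cyclic loess, normexp (offset 50) before quantile normalization, the authors' value table, detection on both arrays, a detection score of at least 0.95, no floor, and the mean of all detected probes of a gene. For a value without replicates, a move smaller than the bead error was taken as no move. The count of members at least 1.5-fold higher, 1 as reported, became 0 with signals as deposited, median scaling and loess, and 7 in the authors' value table. Less the median of all genes, it was 4 in that table. On that scale it was 0 also with detection on both arrays and with the mean of all detected probes. The count at least 1.5-fold lower stayed at 1 under all 9 alternatives, and that gene was Ddx58 in each. Less the median of all genes, it was 2 in the authors' value table, with Rbm8a (−0.63) added. The count at least 2-fold lower, 0 as reported, became 1 (Ddx58) with signals as deposited and in the authors' value table. No member was 2-fold higher under any of them. The members' median, 0.14, was −0.039 with signals as deposited and 0.30 in the authors' table, and less the median of all genes it lay between 0.091 and 0.17. The authors' table differs by both a subtracted background and a rescaled FGF2 array, and the cause of these moves was not tested. No paired analysis was possible because each group has 1 array. Probes close to the lowest detected signals (Srsf3, Rbm41, Rbmx) leave little room to measure a reduction.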
